A study of Mus musculus with 12 samples.

Results

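The genes described here are the 111 protein-coding genes of 7 families of developmental transcription factors, out of 21938 protein-coding genes of the GENCODE annotation of mm10. Membership was set by symbol: Sox, Pax, Tbx, Lhx, Nkx or the Six-family prefix followed by a digit, or Fox followed by a letter and a digit, leaving out Sox10 and Pax3. The families were chosen with earlier results of these data known. The choice gave 44 Fox, 18 Sox, 14 Nkx, 13 Tbx, 8 Lhx, 8 Pax and 6 Six-family genes. Chromatin accessibility had been measured by ATAC-seq, in which a transposase cuts open chromatin, in 2 mouse tumour cell lines. The groups were 4T1 mammary carcinoma cells treated with decitabine (DAC) at 1 µM for 48 h, untreated 4T1 cells, B16F10 melanoma cells treated with DAC at 0.1 µM for 48 h, and untreated B16F10 cells, with 3 libraries each. In all groups, live cells were used after dead cells had been removed, no other genotype or agent was named, and each line is a single established line. Line and dose changed together and cannot be told apart. The labels do not say that the 3 libraries of a group came from separate cultures, so the spread between them may be technical.

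The 7 families are DNA-binding proteins that set up tissues and cell types in the embryo. Sox proteins bind through an HMG box, Tbx proteins through a T-box, Fox proteins through a forkhead domain and Pax proteins through a paired domain, while Six-family, Lhx and Nkx proteins carry homeodomains. Many of their genes have CpG-rich promoters that are held silent outside their own lineage, some by Polycomb and, in tumour cells, often with DNA methylation. DAC, a cytidine analogue, is incorporated during replication and removes DNA methyltransferases by trapping them, so that methylation is lost as cells divide. DNA methylation, histone marks and RNA were not measured in the files used here.

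A promoter was the 5′ end of the gene plus and minus 1000 bp, and it was called in a library when a deposited peak of that library overlapped it by at least 1 bp. Called in DAC libraries alone means 3 of 3 DAC libraries and 0 of 3 untreated libraries of the line. The deposited lists held 109188 to 119795 peaks in DAC-treated 4T1 libraries against 90608 to 95101 in untreated ones, and 54546 to 58468 in DAC-treated B16F10 libraries against 50126 to 53834 in untreated ones. Read totals were not used here, and the labels give only a minimum of 30000000 reads per sample. Promoters of 8 epithelial marker genes, such as Cdh1 and Epcam, were all called in every 4T1 library and 1 of the 8 in every B16F10 library. Of 8 melanocyte markers, 2 were called in every 4T1 library and 7 in every B16F10 library, in which Tyr had no peak. Of 6 leukocyte markers, 0, 1 and 0 were called in DAC-treated 4T1 libraries against 2, 1 and 2 in untreated ones, and none in B16F10. Of 6 fibroblast markers, 1 was called in each DAC-treated 4T1 library against 1, 1 and 2 in untreated ones, and 2 in each B16F10 library. Whether these small differences in leukocyte and fibroblast markers bear on the results was not tested.

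Promoter sequences are shown for the 4 members whose peaks, gained after DAC in 4T1, ranked highest, then for the only member called in untreated 4T1 libraries alone, and last for a member with no promoter peak in any library. Each runs 5′ to 3′ over the 250 bases before the 5′ end of the gene (GRCm38, the assembly that mm10 names), with CpG dinucleotides in capitals. Tbx20 (chr9:24774304-24774553, minus strand) holds 22 CpG, Sox30 (chr11:45980060-45980309, plus strand) 23, Lhx9 (chr1:138848578-138848827, minus strand) 15 and Tbx3 (chr5:119670419-119670668, plus strand) 24. Foxn1 (chr11:78386559-78386808, minus strand) holds 7 and Pax6 (chr2:105668650-105668899, plus strand) 15.
Tbx20: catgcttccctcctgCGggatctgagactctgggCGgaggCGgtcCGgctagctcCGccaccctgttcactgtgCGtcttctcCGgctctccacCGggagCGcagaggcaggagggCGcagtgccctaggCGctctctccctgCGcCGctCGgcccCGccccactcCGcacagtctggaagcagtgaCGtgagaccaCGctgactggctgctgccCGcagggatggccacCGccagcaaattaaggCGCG
Sox30: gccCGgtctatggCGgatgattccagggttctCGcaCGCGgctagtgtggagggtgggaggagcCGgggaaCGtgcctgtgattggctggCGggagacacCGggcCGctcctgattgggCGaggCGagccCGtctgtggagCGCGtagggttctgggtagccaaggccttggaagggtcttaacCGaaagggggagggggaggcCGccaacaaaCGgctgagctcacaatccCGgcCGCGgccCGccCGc
Lhx9: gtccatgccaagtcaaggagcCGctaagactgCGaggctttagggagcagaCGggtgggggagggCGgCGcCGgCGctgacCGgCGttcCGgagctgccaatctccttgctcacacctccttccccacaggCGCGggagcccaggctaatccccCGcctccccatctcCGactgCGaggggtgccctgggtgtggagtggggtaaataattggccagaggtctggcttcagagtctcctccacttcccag
Tbx3: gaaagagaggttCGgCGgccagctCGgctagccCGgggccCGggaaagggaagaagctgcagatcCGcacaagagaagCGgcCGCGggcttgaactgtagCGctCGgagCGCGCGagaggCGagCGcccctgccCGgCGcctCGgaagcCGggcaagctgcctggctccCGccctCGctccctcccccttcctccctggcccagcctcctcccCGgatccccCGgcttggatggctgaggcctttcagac
Foxn1: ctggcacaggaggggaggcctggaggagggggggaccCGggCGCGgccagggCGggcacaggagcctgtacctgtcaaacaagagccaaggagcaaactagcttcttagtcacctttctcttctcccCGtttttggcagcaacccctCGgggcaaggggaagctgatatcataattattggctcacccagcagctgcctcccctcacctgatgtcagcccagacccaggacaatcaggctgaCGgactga
Pax6: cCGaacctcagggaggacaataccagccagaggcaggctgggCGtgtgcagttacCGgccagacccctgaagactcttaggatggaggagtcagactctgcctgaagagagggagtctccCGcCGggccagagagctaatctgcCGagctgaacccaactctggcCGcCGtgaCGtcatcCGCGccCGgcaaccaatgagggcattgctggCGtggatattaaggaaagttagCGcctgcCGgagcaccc
All 250 bases shown for Tbx20, Sox30, Lhx9 and Tbx3 lay inside a peak in each of the 3 DAC-treated 4T1 libraries, and none did in any untreated 4T1 library. For Foxn1, 0 bases lay inside a peak in every DAC-treated library against 142, 149 and 151 in the untreated ones. No base shown for Pax6 lay inside a peak in any 4T1 library.

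The first question was whether DAC changed which of these promoters were open in 4T1. Members with a promoter peak numbered 77, 79 and 72 in the DAC-treated 4T1 libraries against 41, 42 and 41 in the untreated ones. The mean was 76.0 ± 3.61 of 111 in DAC-treated cells and 41.3 ± 0.577 in untreated cells (SD, n = 3 each), a ratio of 1.84. The groups did not overlap, and the gap of 34.7 members was far wider than the spread within either group. It was 20.3 members when each 4T1 list held the same number of peaks and 4 when peaks under a fold enrichment of 5 were dropped. Over all genes the ratio was 1.09, with 61.6% called in DAC-treated and 56.4% in untreated 4T1 cells. An exact permutation test of 3 libraries against 3 cannot give a two-sided p under 0.10, so it is not used to call single genes. From bulk libraries, a larger share of cells with an open promoter and a more open promoter per cell cannot be told apart.

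**Figure D1:**
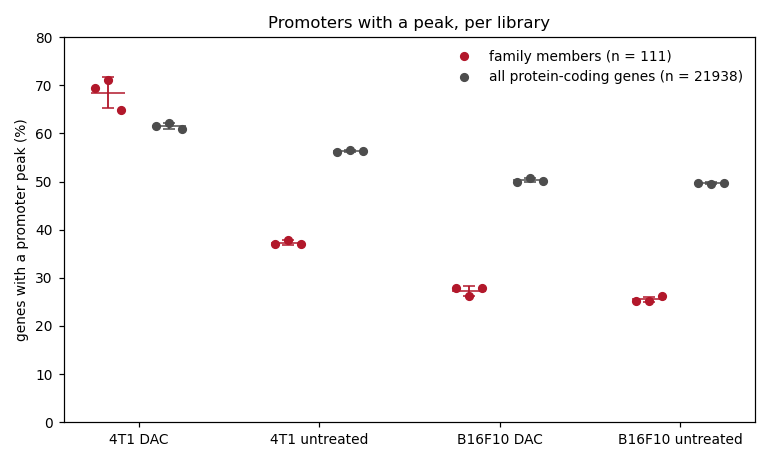
Percent of promoters with a peak in each of the 12 libraries (points), with the mean and SD of each group of 3 libraries (lines and bars), for the 111 family members and for all 21938 protein-coding genes. The members stand at 68.5% on average in DAC-treated 4T1 cells against 37.2% in untreated ones, while both B16F10 groups lie under 30%.

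In 4T1 the peaks of 27 members (24.3%) were found in DAC libraries alone, against 4.22% of all genes. When each 4T1 list was reduced to the same number of strongest peaks, 18 of the 27 were still called in this way, against 2.22% of all genes, while 5 were when peaks under a fold enrichment of 5 were dropped, against 1.14%. In the other direction 1 member, Foxn1, was called in untreated libraries alone, against 0.419% of all genes. A further 16 members were called in 1 or 2 of the DAC libraries and in no untreated one, so 43 members (38.7%) gained at least 1 call without any in untreated cells, against 7.72% of all genes. Another 39 members (35.1%, against 54.4% of all genes) were called in all 6 libraries, and 26 (23.4%, against 34.8%) in none. The remaining members were Foxf2, with 3 DAC calls and 1 untreated call, and Lhx3, with 1 DAC call and 3 untreated calls. Over the 12 libraries of both lines, 24 members (21.6%, against 45.8% of all genes) were called in every library and 24 (21.6%, against 32.3%) in none.

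**Figure D2:**
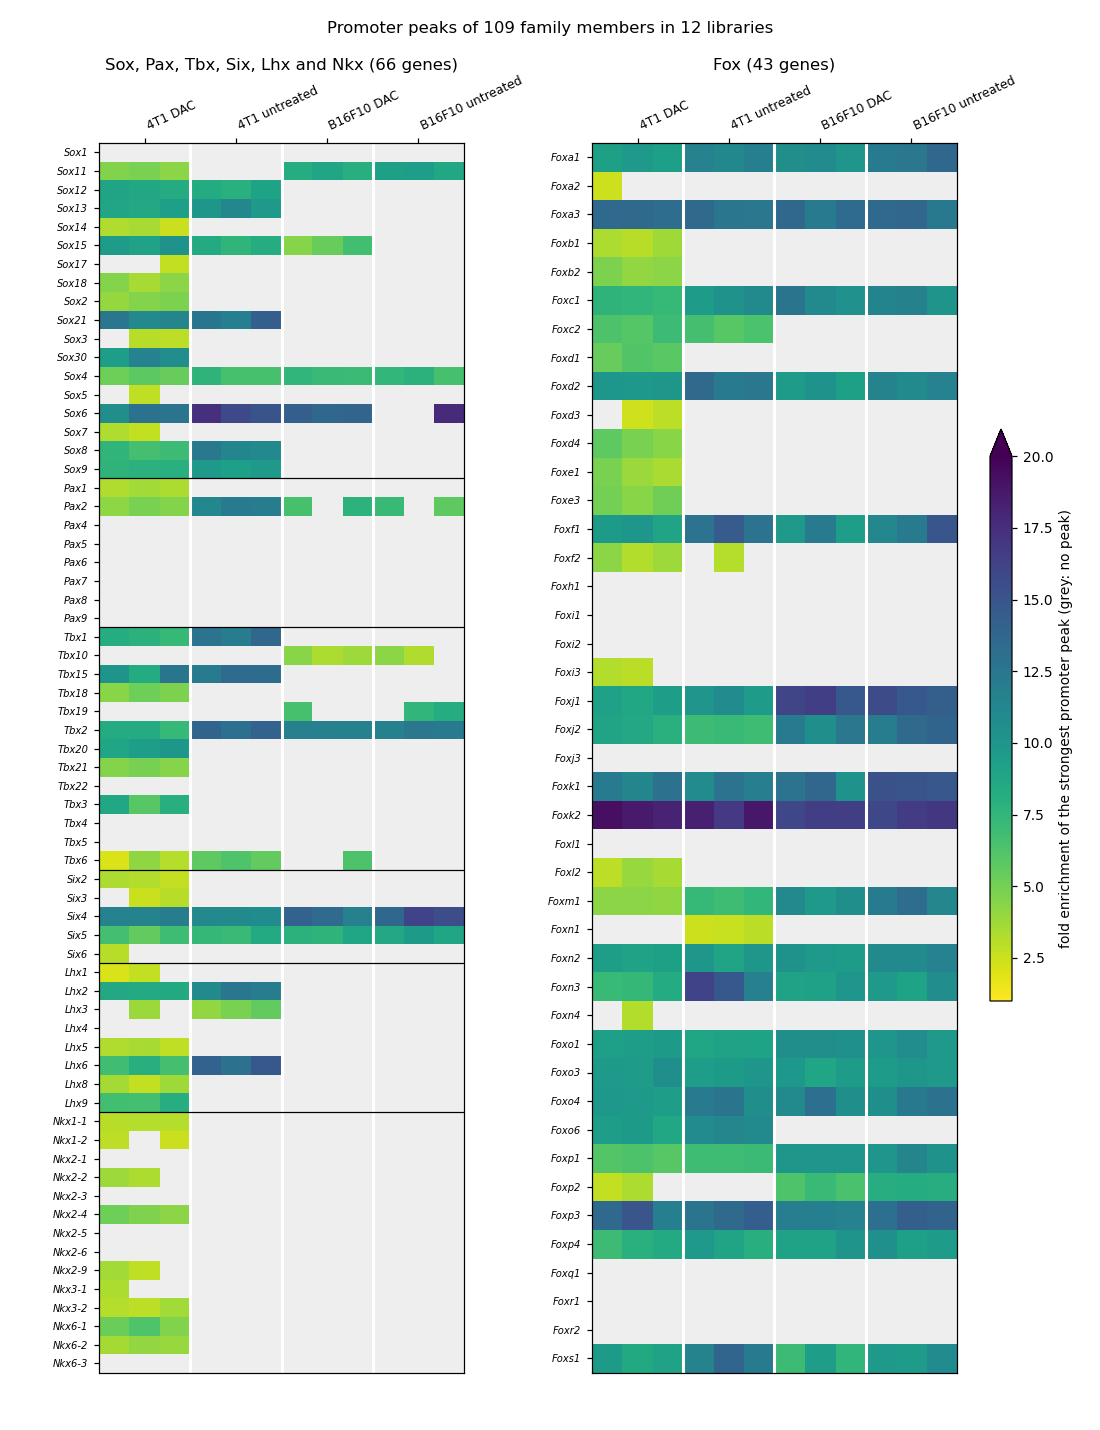
Fold enrichment of the strongest promoter peak (colour scale, the authors' ratio to local background) for 109 of the 111 members (rows, by family) in each of the 12 libraries (columns, 3 per group). Grey marks a promoter without a peak. The cells filled in DAC-treated 4T1 and grey in untreated 4T1 are promoters called in DAC libraries alone, together with those called in 1 or 2 DAC libraries.

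All 7 families had at least 1 promoter called in DAC-treated 4T1 libraries alone. They were 8 of 44 Fox (18.2%), 5 of 18 Sox (27.8%) and 5 of 14 Nkx genes (35.7%), against 4.22% of all genes. The others were 4 of 13 Tbx (30.8%), 3 of 8 Lhx (37.5%), 1 of 8 Pax (12.5%) and 1 of 6 Six-family genes (16.7%). The single Pax and Six-family calls ended with equal numbers of peaks and at a −log10 q of at least 5, so that under either setting no call of this kind was left in those families. At a fold enrichment of at least 5 only the calls of Foxd1, Lhx9, Sox30, Tbx20 and Tbx3 were left. The settings named below as ending calls in 4T1 come in addition to that one. Beside the counts per library given below for single families, the mean shares of all genes called were 61.6% in DAC-treated and 56.4% in untreated 4T1 libraries. The fold enrichments given below are the authors' values for each peak over the local background of its own library, and they describe peaks within a list. Across these 27 promoters they ran between 2.04 and 11.6, with a median of 4.36, near the median of 4.10 for all 926 genes called this way. Members called in all 6 libraries ran between 2.09 and 19.4 in DAC-treated and between 5.55 and 23.1 in untreated 4T1 cells. Each peak was also ranked by its −log10 q-value as a percentile of its list. The lowest of the 3 DAC percentiles had a median of 24.9 over the 27 members and 19.6 over all genes called in DAC libraries alone, so most of these peaks were among the weaker ones of their lists.

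Among T-box genes, Tbx20, which acts in heart muscle, had fold enrichments of 8.80, 9.39 and 9.96 in the DAC-treated 4T1 libraries and no promoter peak in the untreated ones. Its lowest percentile, 68.1, was the highest of the 27. Tbx3, a repressor needed in limb and mammary gland, had 8.60, 5.96 and 8.04 in DAC-treated libraries and no peak in untreated ones. Both peaks spanned the 5′ end, and that of Tbx3 measured 747 to 1046 bp in the DAC-treated libraries. Tbx18, a gene of the epicardium and sinus node, had fold enrichments of 4.36, 5.20 and 4.78 in DAC-treated cells, and Tbx21, which encodes the T helper cell regulator T-bet, 4.50, 4.93 and 4.46, with no peak of either in untreated cells. The Tbx18 call ended when the summit itself had to lie in the window. These 4 brought the family to 8 called members in DAC-treated libraries against 4 in untreated ones. The other 4, Tbx1, Tbx2, Tbx6 and Tbx15, were called in all 6 libraries. Tbx5, the heart and forelimb gene 162.0 kb away from Tbx3, was called in no library.

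Among Sox genes, the calls numbered 14, 16 and 15 of 18 in DAC-treated 4T1 libraries against 8 in each untreated one. Sox30, which is needed for sperm formation, had fold enrichments of 9.44, 11.6 and 10.7 in DAC-treated cells and no peak in untreated cells, the strongest of the 27 by fold. Sox2, a factor of pluripotent and neural progenitor cells, had 3.98, 4.54 and 4.78 in DAC-treated cells and none in untreated cells. Unlike that of Sox30, the strongest Sox2 peak lay downstream of the 5′ end, with summits 603, 640 and 634 bp inside the gene. Sox11, a gene of immature neurons, had 4.63, 4.80 and 4.33 in DAC-treated 4T1 cells and none in untreated 4T1 cells. Sox18, which acts in blood and lymph vessel cells, had 4.54, 3.48 and 4.28 in DAC-treated cells, and Sox14, a neuronal gene, 3.26, 3.46 and 2.55, with no peak of either promoter in untreated cells. Upstream of Sox18, at positions -2242 to -1749 relative to the 5′ end, all 3 untreated 4T1 libraries held a peak, and its call ended with windows of 500 and of 2000 bp. The Sox14 call ended at a −log10 q of at least 5, with equal numbers of peaks, with the 500 bp window and by summit. Sox17, which acts in endoderm and vessels, had a peak of fold enrichment 2.71 in 1 DAC library and none in untreated ones. When all annotated starts were read, Sox17 had a peak in 3 of 3 DAC-treated and 0 of 3 untreated 4T1 libraries. Sox9, the cartilage and testis regulator, was called in all 6 libraries, with 7.61, 7.87 and 7.96 in DAC-treated against 9.74, 9.30 and 9.72 in untreated 4T1 cells.

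Among Nkx genes, which act in heart, gut, lung and nervous system, no promoter was open in untreated cells. None of the 14 Nkx promoters was called in any untreated 4T1 library or in any B16F10 library, while 9, 7 and 6 were called in the DAC-treated 4T1 libraries. Of all genes, 61.6% were called on average in DAC-treated and 56.4% in untreated 4T1 libraries. Nkx6-1, a gene of insulin-producing cells and motor neurons, had fold enrichments of 5.26, 6.21 and 4.59 in DAC-treated 4T1 cells and no peak in untreated ones. Nkx2-4 followed with 5.23, 4.66 and 4.30 in DAC-treated cells, Nkx6-2, which acts in the central nervous system, with 3.56, 4.05 and 3.95, Nkx3-2, a cartilage gene, with 3.13, 2.89 and 3.66, and Nkx1-1 with 3.02, 3.08 and 3.15. No Nkx call was left at a fold enrichment of at least 5. The Nkx3-2 call also ended with equal numbers of peaks and with the 500 bp window. The lung and thyroid gene Nkx2-1 and the heart gene Nkx2-5 had no peak at the 5′ end in any library. At another annotated start of Nkx2-1, a peak was present in 3 of 3 DAC-treated and 0 of 3 untreated 4T1 libraries.

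The Lhx genes, whose products carry LIM domains, had 6, 7 and 5 calls of 8 in DAC-treated 4T1 libraries against 3 in each untreated one. Lhx9, which acts in the early gonad, had fold enrichments of 6.76, 6.65 and 8.18 in DAC-treated cells and no peak at its 5′ end in untreated cells. Another annotated start of Lhx9 had a peak in all 3 untreated libraries, so that the gain concerned the outermost start and the call ended when all starts were read. Tbx20 likewise had a peak at another start in 2 untreated libraries and lost its call then, and the other 25 genes had none. Lhx8, a gene of cholinergic neurons and oocytes, had 3.58, 2.77 and 3.73 in DAC-treated cells, and the forebrain gene Lhx5 3.26, 3.46 and 2.79, with no peak of either in untreated cells. Both of these calls ended at a −log10 q of at least 5 and with equal numbers of peaks, which left Lhx9 as the only Lhx call. Lhx2, a forebrain and hair follicle gene, was open in both states, at 8.57, 8.40 and 8.44 in DAC-treated against 10.9, 12.5 and 11.9 in untreated 4T1 cells. Lhx3, which acts in the pituitary gland, had a peak of fold enrichment 3.86 in 1 DAC library against 4.09, 4.79 and 5.59 in the untreated ones.

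Only Pax1 among the Pax genes and Six2 among the Six-family genes were called in DAC libraries alone. Pax1, which acts in the vertebral column, had fold enrichments of 3.27, 3.60 and 3.34 in DAC-treated 4T1 cells and no peak in untreated cells. Six2, which keeps nephron progenitors, had 3.36, 3.19 and 2.75 in DAC-treated cells and none in untreated cells. Both calls ended at a −log10 q of at least 5 and with equal numbers of peaks, and that of Pax1 also with the 500 bp window. Pax4, Pax5, Pax6, Pax7, Pax8 and Pax9 had no peak at the 5′ end in any of the 12 libraries. Other annotated starts differed: the eye gene Pax6, Pax8 and the B-cell gene Pax5 had a peak there in all 6 libraries of 4T1, and Pax9, a gene of teeth and thymus, in 3 of 3 DAC-treated and 0 of 3 untreated 4T1 libraries and in all 6 B16F10 libraries.

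Fox calls numbered 33, 34 and 31 of 44 in DAC-treated 4T1 libraries against 22, 23 and 22 in untreated ones. Foxd1, a gene of kidney stroma, had fold enrichments of 5.39, 6.16 and 5.83 in DAC-treated 4T1 cells and no peak in untreated cells. Foxd4 had 5.74, 4.85 and 4.40 in DAC-treated cells, the lens gene Foxe3 4.94, 4.40 and 5.10, and Foxb2 4.73, 4.06 and 4.30, with none in untreated cells. These 4 ranked highest among the family's 8. The thyroid gene Foxe1 had 4.84, 3.87 and 3.39, the ovary gene Foxl2 2.91, 3.94 and 3.50, and the diencephalon gene Foxb1 3.34, 3.06 and 3.71 in DAC-treated cells, with none in untreated cells. With equal numbers of peaks the calls of Foxe1 and Foxb1 ended, Foxb1 also at a −log10 q of at least 5 and with the 500 bp window, and by summit those of Foxb2 and Foxd4. The neural crest gene Foxd3 was called in 2 DAC libraries, at 2.40 and 2.87, and in no untreated one.

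The single loss was small. Foxn1, which drives thymic epithelium, had no promoter peak in DAC-treated 4T1 cells against fold enrichments of 2.44, 2.57 and 2.95 in untreated cells. Its peaks were only 142 to 151 bp wide and reached percentiles of 3.88 to 12.6 of their lists.

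**Figure D3:**
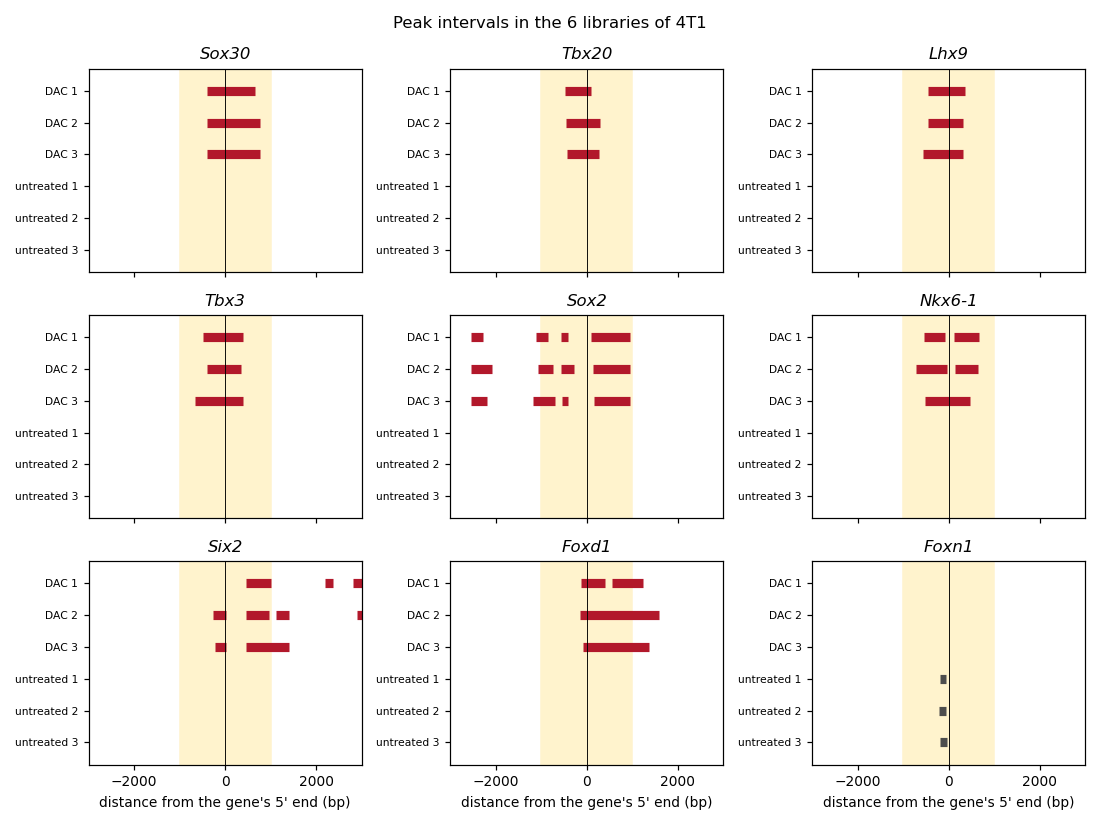
Deposited peak intervals around the 5′ ends of 9 members in the 6 libraries of 4T1 (rows), with distance from the 5′ end in bp on the horizontal axis, positive inside the gene, and the promoter window shaded. For 8 of them the DAC libraries hold intervals and the untreated libraries none. Foxn1 shows the reverse, with narrow intervals.

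Position and base composition were then examined. Neither entered the choice of the 111 genes, but a call needed a peak overlapping the promoter window, which limits the position. The summits of the strongest overlapping peaks lay downstream of the 5′ end in all 3 DAC libraries for 17 of the 27 members and upstream in all 3 for 4. The same was not counted over all genes called in DAC libraries alone, so it cannot be called a trait of the members. The median CpG density of the 27 promoters was 7.10 per 100 bp, against 4.75 over all genes called in DAC libraries alone, 6.35 over members called in all 6 libraries and 2.65 over members called in none. Of the 111 members, 58 fell into the quintile of genes with the densest promoter CpG. Repeat sequence covered a median of 9.35% of the 27 promoters and 10.6% of all promoters called this way.

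Among members without an untreated call, the share called in all 3 DAC libraries was higher at higher CpG density. By quintiles of all genes, lowest density first, it was 0 of 4, 0 of 6, 3 of 15 (20%), 3 of 12 (25%) and 21 of 32 (65.6%). The same shares over all genes were 1.07%, 3.91%, 15.1%, 36.2% and 66.6%. In the densest quintile the members stood at the background here, and other settings moved them to either side of it. Members were above all genes at a −log10 q of at least 5 (54.5% against 45.7%) and with equal peak numbers (45.5% against 33.9%). So they were with 2 of 3 libraries (87.5% against 78.3%) and any transcript start (74.2% against 70.6%). They were slightly below with windows of 500 bp (54.5% against 55.6%) and 2000 bp (70% against 72.2%). The same held by summit (55.9% against 56.2%) and when peaks under 5-fold were dropped (9.09% against 9.21%). Over all quintiles the share was 27 of 69 (39.1%) against 9.93% of all genes. The lower quintiles hold few members, and no test was made over the members.

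**Figure D4:**
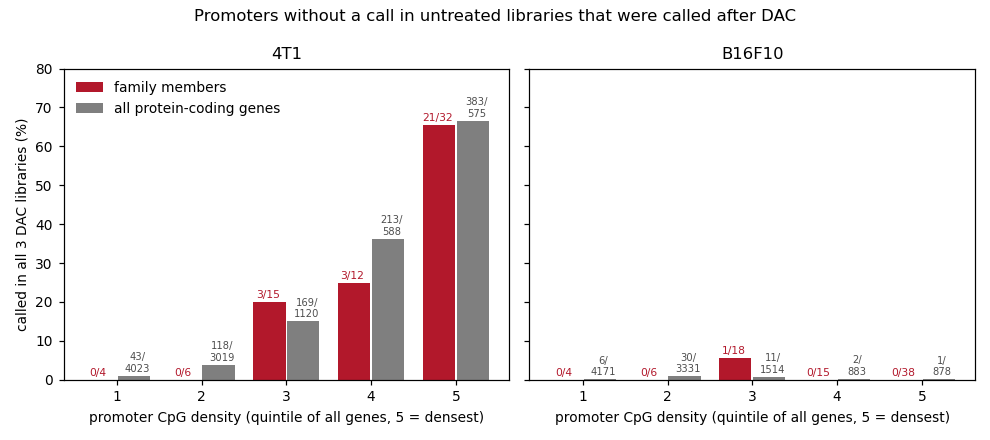
Share of promoters without a peak in any untreated library that had a peak in all 3 DAC libraries (vertical axis, %), by quintile of promoter CpG density (horizontal axis), for members and for all protein-coding genes in each line, with the counts above the bars. In 4T1 the share in the densest quintile is 65.6% for members and 66.6% for all genes, and in B16F10 it is 0 of 38 and 0.114%.

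Neighbouring members did not always move together. There were 19 pairs of members with 5′ ends within 250 kb of each other. Foxe3, called in DAC-treated 4T1 libraries alone, lies 17.1 kb from Foxd2, which was called in all 6. Six2 lies 74.7 kb from the forebrain gene Six3, which was called in 2 DAC libraries and no untreated one. Nkx2-4 and Pax1, both called in DAC libraries alone, lie on either side of Nkx2-2, itself called in 2 DAC libraries. At Foxf1, Foxc2 and Foxl1, within 43.6 kb, the first pair were called in all 6 libraries and Foxl1 in none.

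The windows around the genes were examined for peaks away from the 5′ end, since a promoter without a call can lie beside open chromatin. Bases in peaks within 10 kb of the 5′ end averaged 1705, 1825 and 1656 per member in DAC-treated 4T1 libraries against 1233, 1230 and 1204 in untreated ones. Over all genes the averages were 1285, 1319 and 1245 in DAC-treated and 1263, 1288 and 1267 in untreated libraries, which overlap. For 58 members (52.3%, against 17.6% of all genes) every DAC library had more bases in peaks than every untreated one, and for 14 (12.6%, against 22.9%) every DAC library had fewer. When peaks under a fold enrichment of 5 were dropped, the balance turned, with 12 members higher (10.8%, against 9.48% of all genes) and 25 lower (22.5%, against 26.8%), both near the background. With equal numbers of peaks 41 were higher (36.9%, against 12.4%) and 19 lower (17.1%, against 27.4%). The total length in peaks moves with how much was called in a library. The 26 members with no promoter call in 4T1 averaged 1050, 1123 and 1069 bases in DAC-treated against 767, 749 and 759 in untreated libraries. Among them, Sox1, a neural progenitor gene, had 1605, 1123 and 1114 bases in DAC-treated libraries and 0 in every untreated one, and Nkx2-1 had 1094, 1242 and 1533 against 0 in every untreated one. Around Pax5 there were 866, 1368 and 1078 bases in DAC-treated and 0 in every untreated 4T1 library.

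Where a promoter was open in both states, the question was whether its standing among open promoters differed. The 39 members called in all 6 libraries of 4T1 were ranked by fold enrichment among the 11925 promoters called in all 6. The DAC minus untreated difference in mean percentile had a median of -4.94 over the members and 1.10 over all genes. In 19 members (48.7%, against 23.3% of all genes) every DAC percentile lay below every untreated one, and in 8 (20.5%, against 32.9%) above. Pax2, a kidney and eye gene, had fold enrichments of 4.26, 4.85 and 4.51 in DAC-treated against 11.1, 12.2 and 11.97 in untreated 4T1 cells, a percentile difference of -33.0. These values belong to an upstream peak with summits at -1133 to -1212 bp, outside the window, which only the edge of the peak overlapped. Across the 5′ end itself, peaks lay at -502 to 740, -417 to 1470 and -421 to 319 bp in the DAC-treated 4T1 libraries. No untreated 4T1 library held a peak there. Bases in peaks within 10 kb of Pax2 went the other way, with 2299, 3323 and 2439 in DAC-treated and 438, 631 and 647 in untreated libraries. Tbx2, a repressor that counters senescence, had 8.32, 8.28 and 7.31 in DAC-treated against 13.9, 13.03 and 14.1 in untreated cells, and Lhx6, an interneuron gene, 6.84, 8.03 and 6.57 against 14.0, 12.9 and 14.8. Sox9, Lhx2, Foxa1, Foxc1 and Foxm1 were also lower without overlap by fold enrichment. Foxa1, which opens chromatin in epithelia, had 9.20, 9.72 and 9.25 in DAC-treated and 11.6, 11.1 and 11.8 in untreated cells. Foxc1 had 7.68, 7.53 and 7.30 against 9.51, 10.3 and 11.0, and the cell-cycle gene Foxm1 4.30, 4.29 and 4.14 against 7.23, 6.91 and 7.42. By −log10 q, as a percentile of the whole list, the lowest DAC value was above the lowest untreated one for Sox9 (87.3 against 86.6) and Lhx2 (56.4 against 51.9). The same held for Foxa1 (88.1 against 80.6) and Foxc1 (84.0 against 82.8), and the reverse for Foxm1 (62.9 against 70.7). The Foxm1 window also holds the 5′ end of Rhno1, and the windows of Foxa3, Foxp3, Six6 and Sox6 likewise hold that of another protein-coding gene, so that the 5 cannot be told apart from their neighbours. Sox15 had the largest positive difference, at 9.49, 9.05 and 10.3 in DAC-treated against 8.35, 7.57 and 8.24 in untreated cells. Ranked by −log10 q-value in place of fold enrichment, the median difference was 0.112 for members and 0.389 for all genes, with 16 members lower (41.0%, against 24.8%) and 12 higher (30.8%, against 27.2%) without overlap, so the lower standing was seen by fold enrichment and not in the median by q-value.

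**Figure D5:**
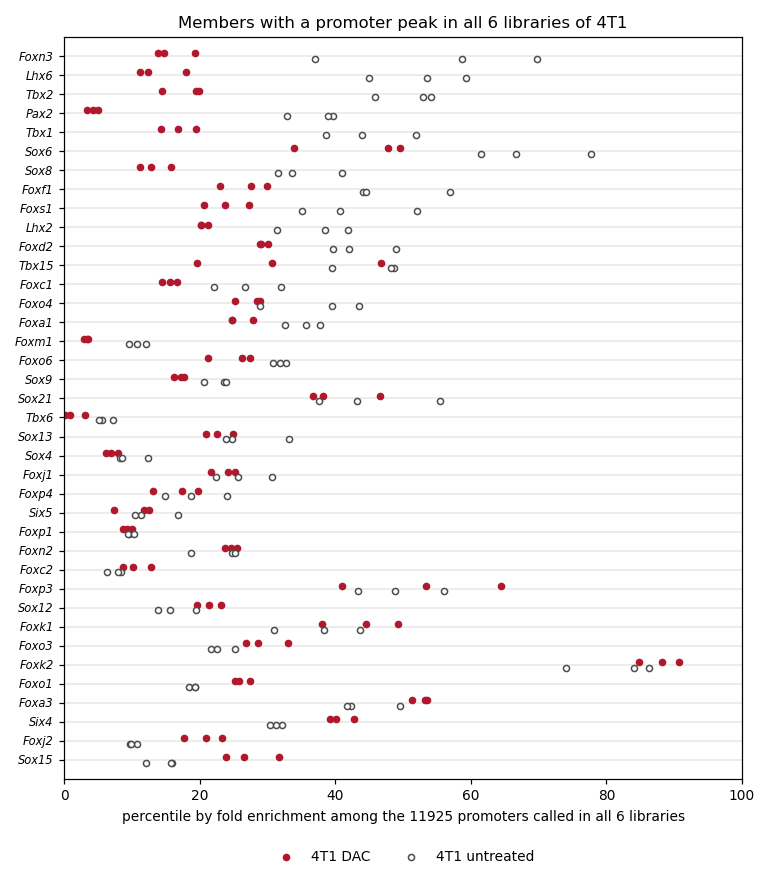
Percentile by fold enrichment (horizontal axis) of 38 of the 39 members called in all 6 libraries of 4T1, among the 11925 promoters called in all 6, with 1 point per library. The DAC points lie left of all untreated points for 18 of those drawn, with Foxn3 at the top, and right of them for 8, with Sox15 at the bottom.

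In B16F10 few calls differed between the arms. Members with a promoter peak numbered 31, 29 and 31 in DAC-treated libraries against 28, 28 and 29 in untreated ones, with means of 30.3 ± 1.15 and 28.3 ± 0.577 (SD, n = 3 each), and the groups shared the value 29. Over all genes 50.3% were called in DAC-treated and 49.6% in untreated B16F10 cells. Sox15, a Sox gene of muscle and placenta precursors, was the only member called in DAC libraries alone (0.901%, against 0.228% of all genes), with fold enrichments of 4.43, 5.44 and 6.72 in DAC-treated cells and no promoter peak in untreated ones. All 3 untreated B16F10 libraries held a peak further inside Sox15, between 1764 and 2299 bp from its 5′ end, so the call ended with the 2000 bp window, and it also ended at a fold enrichment of at least 5. No member was called in untreated libraries alone, against 0.0684% of all genes. The members called in all 6 libraries numbered 26 (23.4%, against 48.0%), of which 20 were Fox genes and none Pax, Lhx or Nkx genes, and 79 members (71.2%, against 47.1%) were called in no library. By quintiles of CpG density, lowest first, 0 of 4, 0 of 6, 1 of 18, 0 of 15 and 0 of 38 members without an untreated call were called in all 3 DAC libraries, against 0.144%, 0.901%, 0.727%, 0.227% and 0.114% of all genes. Of the 26 shared promoters, 4 stood lower (15.4%, against 8.5% of all genes) and 3 higher (11.5%, against 9.94%) in DAC without overlap, by fold enrichment. Sox6, a partner of Sox9 in cartilage, was called in 3 DAC libraries at 14.2, 13.8 and 13.8 and in 1 untreated library at 17.7, in a window it shares with 1110004F10Rik. A peak lay there in all 6 B16F10 libraries, with its near edge at -948, -974 and -955 bp from the 5′ end in DAC-treated and -1050, -1141 and -974 bp in untreated ones, so that the calls differed by the edge of the window. Tbx19, which acts in the pituitary gland, was called in 1 DAC library against 2 untreated ones. By bases in peaks within 10 kb, 3 members were higher in DAC without overlap, against 6.22% of all genes, and 4 were lower, against 4.75%.

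The 27 promoters called in DAC-treated 4T1 libraries alone were also looked up in B16F10. For 26 of them no B16F10 library had a promoter peak. Promoters without a B16F10 peak made up 71.2% of the 111 members and 47.1% of all genes. Their share among all genes called in DAC-treated 4T1 libraries alone was not counted. Sox11 was called in all 6 B16F10 libraries, at 8.21, 8.85 and 8.09 in DAC-treated against 9.18, 9.35 and 8.67 in untreated cells. The reverse held for Sox15, which was called in all 6 libraries of 4T1. No member was called in DAC libraries alone in both lines, against 0.0273% of all genes (6 genes). A permutation test that exchanged libraries within each line has 400 relabellings and a smallest two-sided p of 0.005, which only a gene that changed in both lines can reach, so that it says nothing about members that differed in 1 line.

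The untreated lines were compared last. Of the members, 15 (13.5%, against 8.03% of all genes) were called in all 3 untreated 4T1 libraries and in no untreated B16F10 library, and 2 (1.80%, against 1.94%) the reverse. The untreated 4T1 lists were longer, with 90608 to 95101 peaks against 50126 to 53834 in untreated B16F10 lists. The 12 of highest rank on the 4T1 side were Sox9, Sox21, Foxo6, Lhx6, Tbx1, Sox15, Sox12, Sox8, Tbx15, Foxc2, Sox13 and Tbx6. At another annotated start, Sox13 and Tbx15 each had a peak in 3 of 3 untreated B16F10 libraries. Sox9 led with a lowest percentile of 86.6, and Lhx2 was also among the 15. On the B16F10 side Sox11 and Foxp2, a gene of brain and lung, were called. Foxp2 had no promoter peak in untreated 4T1 cells against fold enrichments of 8.14, 8.24 and 8.19 in untreated B16F10 cells, and it was called in 2 DAC-treated 4T1 libraries at 2.76 and 3.33. In 24 members (21.6%, against 46.3% of all genes) the promoter was called in all 3 untreated libraries of both lines, and in 65 (58.6%, against 39.6%) in no untreated library.

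A list of 26 related genes and cofactors, chosen by their known role, was read in the same way. Calls in DAC-treated 4T1 libraries alone were made for 5 of the 26, against 4.22% of all genes, and none in untreated 4T1 libraries alone. They were T, the T-box gene of mesoderm, the LIM-homeodomain genes Lmx1a, Lmx1b and Isl1, and Pax3, a neural crest and muscle gene left out of the 111. The first 4 have promoters in the densest CpG quintile and Pax3 in the one below it. Of all genes without an untreated 4T1 call in these quintiles, 66.6% and 36.2% were called in the same way. Eya2, also in the densest quintile, had no promoter peak in any 4T1 library. Isl1, which acts in motor neurons and heart, had fold enrichments of 3.49, 5.33 and 3.82 in DAC-treated 4T1 cells and no peak in untreated ones. Lmx1b had 3.10, 3.59 and 3.76 in DAC-treated 4T1 cells and no peak in untreated ones, and in B16F10 it was open in both states, at 9.67, 7.69 and 8.41 in DAC-treated and 8.91, 11.9 and 11.4 in untreated cells. Among the cofactors, of 6 LIM cofactors 3, of 6 cofactors of Six-family proteins such as Eya1 and Dach1 4, and of 4 Groucho corepressors (Tle genes) 4 were called in all 6 libraries of 4T1, against 54.4% of all genes, and the rest in none. No cofactor was called in DAC libraries alone, which at 4.22% of all genes is near the background for so few genes. In B16F10 none of the 26 was called in DAC libraries alone, against 0.228% of all genes, or in untreated ones alone, against 0.0684%.

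The promoter sequences shown above were followed up by searching 4 short motifs on both strands of the 300 bases around every 5′ end (250 before and 50 after). CCAAT was found in 51.9% of the 27 promoters, 44.1% of the members and 39.0% of all promoters. Over all genes called in DAC-treated 4T1 libraries alone it was found in 36.9%. ACAAAG, a core bound by Sox proteins, was found in 7.41%, 8.11%, 17.8% and 13.1% of the same 4 sets. TCACACCT, a T-box core, was found in 7.41%, 1.80%, 1.19% and 2.05%, and TGACGTCA in 0%, 1.80%, 2.43% and 2.16%. With 27 promoters, the 7.41% are 2 promoters, and a match describes letters and not binding.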

How the data were processed

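ATAC-seq had been done on 12 libraries, and 1 peak list per library was used. Per the submitters' processing notes, the build was mm10 and the tools included Bowtie2, MACS2 and Picard, FastQC and MultiQC, ChIPseeker and DiffBind, with no version given. Per the labels, a Nextera kit was used for transposition and either of 2 instruments for sequencing, without naming which for each library. The deposited lists give, per peak, the fold enrichment (a ratio to local background), the −log10 p-value and −log10 q-value, and a score, all made by the authors' peak caller; every list ends at a q of 0.05. They grow with depth or depend on background and hold no read counts, so no counting interval could be given. A longer list calls more promoters, so an equal number of peaks per library was an alternative.

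Peaks on 21 chromosomes were matched to the 5′ ends of 21938 protein-coding genes of GENCODE M21 (GRCm38) with Python 3.11.15, numpy 2.4.6, pandas 2.3.3 and pysam 0.24.0, and the counting was tested on simulated data. Members and lists were chosen with earlier results of these data known. Named genes were all members called in 1 arm alone, up to 12 per direction of the untreated contrast, and 16 genes of general interest; others were named after their values were seen. Alternatives were a −log10 q of at least 5, a fold enrichment of at least 5, equal peak numbers, windows of 500 and 2000 bp, any transcript start, the summit inside the window, calls in 2 of 3 libraries, a replicate block and each library left out. Bases within 10 kb and percentiles of shared promoters, with their alternatives, were added after seeing the data. Values of 2 members are counted in the totals but not reported singly here.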

Additional observations from a re-analysis of the deposited data

How the results depend on the processing

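The 27 members called in DAC-treated 4T1 libraries alone became 21 at a −log10 q of at least 5 (3% of all genes), 18 with an equal number of peaks (2.22%), 22 and 30 with windows of 500 and 2000 bp (3.64% and 4.64%), 31 at any transcript start (4.42%), 23 by summit (4.07%) and 37 when 2 of 3 libraries were enough (5.72%). At a fold enrichment of at least 5 only 5 were called (Foxd1, Lhx9, Sox30, Tbx20 and Tbx3; 1.14%), since most of the 27 peaks lie below that fold, and 3 (1.13%) were called in untreated libraries alone. That untreated count was 0 at the stricter q and 2 with equal peaks. The DAC minus untreated mean of members with a peak in 4T1 was 26.7 at the stricter q, 4 at the higher fold, 20.3 with equal peaks, 29 and 38 with the narrower and wider windows, and 38.3 at any start. The share in the densest CpG quintile was 9.09%, 45.5% and 87.5% at the higher fold, with equal peaks and with 2 of 3 libraries, where all genes gave 9.21%, 33.9% and 78.3%. In B16F10 the 1 member called in DAC libraries alone became 0 at the higher fold and with the wider window, and the mean difference was 1 by summit. Untreated members called in B16F10 alone were 4 at any start and with 2 of 3 libraries. Leaving out each library gave 27 to 33 members in DAC-treated 4T1 libraries alone, 1 to 2 in untreated ones (2 without DAC replicate 2), mean differences of 33.2 to 36.7 and densest-quintile shares of 65.6% to 81.2%; in B16F10, 1 to 2 (2 without untreated replicate 3), 0, and 1.67 to 2.67; between untreated lines, 15 to 16 and 2 to 3. Members higher within 10 kb were 12 at the higher fold (9.48% of all genes), and those lower were 25 there (26.8%) and 7 within 5 kb (24%); leaving out each library gave 58 to 64 and 15 to 18. Those with a lower or higher percentile were 19 to 21 and 8 to 9. Correlations of deviations, not of the libraries' own values, were taken between DAC and untreated libraries. Same-numbered libraries gave -0.0299, 0.0127 and 0.0406 in 4T1 and -0.0319, -0.0692 and 0.0259 in B16F10. Other pairs gave -0.0476 to 0.0364 in 4T1 and -0.0413 to 0.0715 in B16F10, so no pairing by number was seen in these values. Calls by replicate block gave 27 and 1, since a call in all DAC and no untreated libraries is the same within pairs. List lengths differ between the 4T1 arms, so depth and library quality were not told apart from treatment, and read depth was not tested.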
